A study of Gallus gallus with 72 samples.

Results

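RNA of chicken breast muscle was compared across hatch in 1 breed, White Plymouth Rock. It used 6 libraries from chicks 1 day after hatch (D1) and 6 from embryos at embryonic day 17 (E17), 12 of the 72 libraries of the series. They were chosen by breed and stage as labelled, with no measured value involved. The series holds 3 breed groups (White Plymouth Rock, Cornish and their crossbred), each at E17 and at 1, 21 and 42 days after hatch (D1, D21 and D42). All birds are labelled as male broilers, no treatment or transgene is named, and both groups used here are untreated purebred birds that differ by stage. The source label speaks of breast muscle myofibroblasts under a cell line tag, whereas the extraction protocol describes frozen muscle, so the libraries were read as whole tissue.

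White Plymouth Rock is a heavy breed that, with Cornish, gave rise to the commercial broiler. The breast muscle of the chicken, the pectoralis, is built almost wholly of fast glycolytic fibres in the adult bird. Around hatch the embryo changes from gas exchange through the chorioallantoic membrane to lung breathing, absorbs the yolk into the body, and moves from a lipid-based supply to carbohydrate feed. Muscle fibre number is largely set before hatch, and fibres then grow by fusion of satellite cells and by protein accretion. The embryonic fibre also carries contractile isoforms that the adult shares with the heart and with slow muscle.

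Markers of the labelled tissue were present, with 15 of 19 genes of a muscle list in the deposited counts (among them titin, nebulin and the fast troponins). Those counts hold only genes above 0 in at least 36 of the 72 libraries, so detection of the 15 alone says little about the tissue. The summed level of the 15 was 38900 to 54330 CPM at D1, against 26336 to 41029 CPM at E17. CPM is the library-scaled count after TMM. It is not corrected for transcript length, so levels are compared between groups and not between genes. Total counts ranged from 52506427 to 60236727 per library (53940199 ± 871029 at D1 and 58366696 ± 1751021 at E17, SD, n = 6 each), and no libraries were identical. The stages separated on principal component 1, which carried 53.9% of the variance. Each library correlated on average at 0.942 to 0.960 with its group at D1 and at 0.967 to 0.976 at E17. D1 libraries 1 and 6 lay apart from the other D1 libraries, and E17 libraries 1 and 5 carried skin keratins (the 14 skin markers summed to 211 and 545 CPM there). The sum was 33.5 to 37.0 CPM in the other E17 libraries and 22.7 to 40.9 CPM at D1. The standard deviation of the log2 level was larger at D1 than at E17 in 9539 of 11599 genes (82.2%), with medians of 0.313 at D1 and 0.174 at E17. The labels do not say that the libraries of a group are separate birds, so each p-value measures the spread between these libraries, which may be technical.

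Of 11599 genes tested, 3080 rose (26.6%) and 2983 fell (25.7%) at D1 relative to E17, in all 6063 (52.3%), by edgeR's quasi-likelihood test at an adjusted p under 0.05 (Benjamini-Hochberg over all genes tested). All adjusted p-values below are from this test unless another is named, and fold changes are log2 of D1 over E17 ± standard error. By at least 2-fold, 940 genes rose (8.10%) and 1323 fell (11.4%). The 6 D1 libraries lay wholly above the 6 E17 libraries in 1835 genes (15.8%) and wholly below in 1904 (16.4%). The median log2 fold change over all genes was -0.0057. With library totals in place of TMM that median was -0.151 and the split was 2203 higher to 3751 lower, so 37.0% of called genes were higher, against 50.8% with TMM. List medians moved by about that shift, and those of the sarcomere scaffold, myogenic, IGF and myostatin, thyroid, creatine and purine, and Schwann cell lists, which lay near 0, changed sign. Without D1 libraries 1 and 6 and E17 library 5, 3013 genes rose and 2982 fell, and 5379 of the 6063 called genes were still called. The shares over all genes are the background for every list below, and the lists are described by counts and medians.

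**Figure D1:**
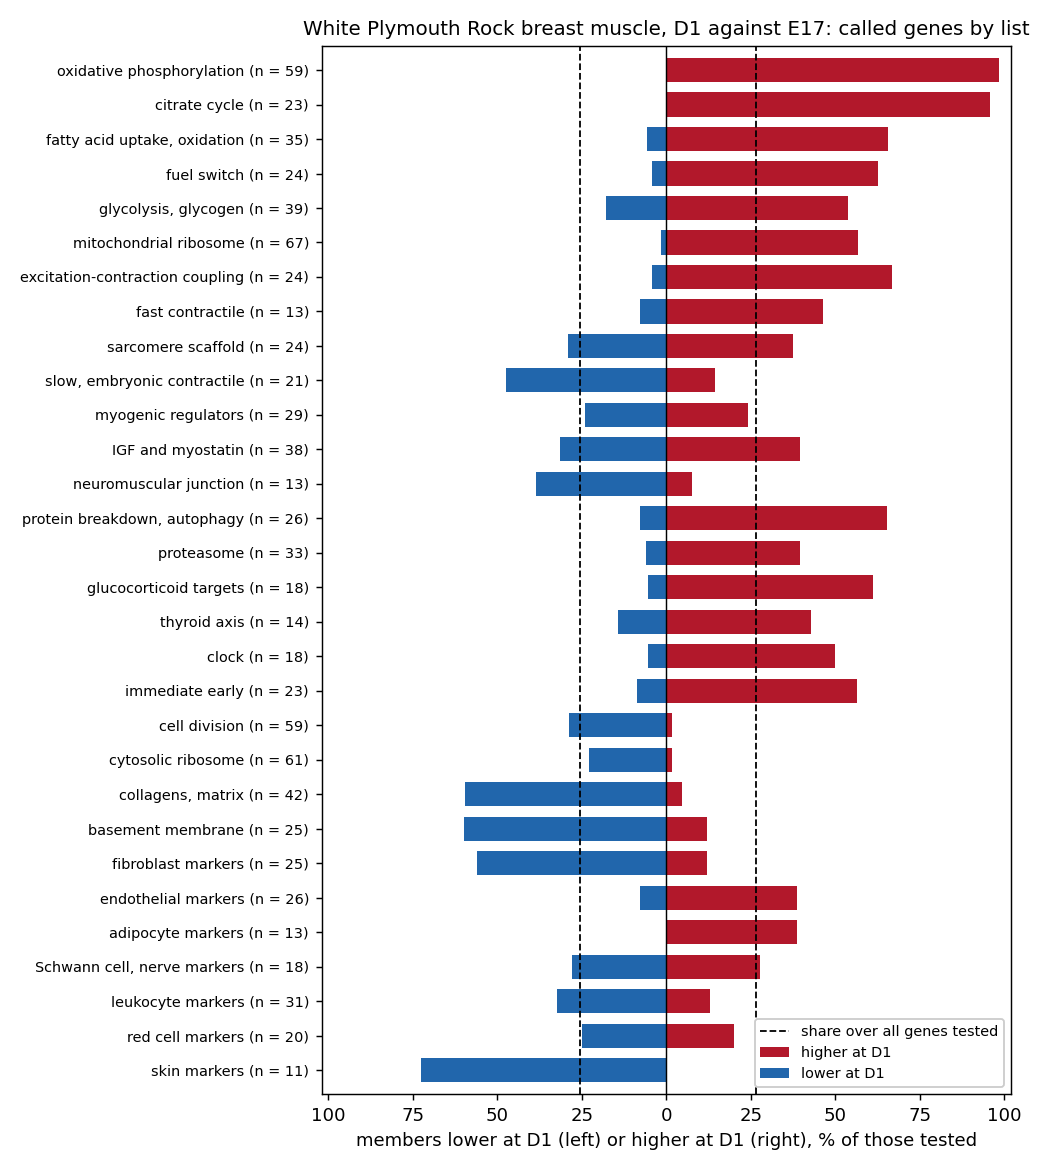
Share of the tested members of each gene list that rose at D1 (right, red) or fell at D1 (left, blue) relative to E17, in percent, by edgeR at an adjusted p under 0.05; n is the number of members tested, and dashed lines mark the shares over all 11599 genes (26.6% and 25.7%). Oxidative phosphorylation, the citrate cycle, fatty acid oxidation and excitation-contraction coupling reach farthest to the right, and skin, collagen, basement membrane and fibroblast lists farthest to the left. The summed skin markers stood above the D1 range only in E17 libraries 1 and 5.

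Of the contractile genes of the embryonic and slow programme, 10 of 21 fell at D1 and 3 rose, while 6 of 13 fast isoforms rose. TNNT2, cardiac troponin T, which embryonic skeletal muscle shares with the heart, had 7.27 to 28.8 CPM (median 11.05) at D1, against 429 to 613 CPM (median 537) at E17 (log2 fold change -5.14 ± 0.38, adjusted p = 5.59e-07), the largest fall among contractile genes. TNNC1, the slow and cardiac troponin C, had 26.0 to 483 CPM (median 109) at D1, against 1408 to 3598 CPM (median 2321) at E17 (-3.72 ± 0.59, adjusted p = 0.000187). TNNI1, slow skeletal troponin I, had 10.03 to 164 CPM (median 52.0) at D1, against 443 to 691 CPM (median 507) at E17 (-3.03 ± 0.51, adjusted p = 0.000308). For all 3 troponins every D1 library lay below every E17 library, and D1 library 2 was the highest of its group for TNNI1 and TNNC1, at 164 and 483 CPM. The low level of TNNC1 was not kept at D21 and D42, as given with the later stages below.

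ACTC1, cardiac alpha actin, the actin of early fibres, had 202 to 2285 CPM (median 876) at D1, against 3018 to 5696 CPM (median 4253) at E17 (-2.16 ± 0.48, adjusted p = 0.00223). MYH15, a myosin heavy chain known from the chicken ventricle, had 0.0744 to 1.10 CPM (median 0.762) at D1, against 7.48 to 18.0 CPM (median 11.6) at E17 (-4.03 ± 0.46, adjusted p = 1.54e-05). MYL4, the embryonic and atrial light chain, had 0 to 1.78 CPM (median 0.986) at D1, against 2.36 to 23.8 CPM (median 3.84) at E17 (-2.90 ± 0.80, adjusted p = 0.00812; -2.11 without E17 library 5; not called with the replicate number as a block, adjusted p = 0.0558). MYBPC1, slow myosin-binding protein C, fell (-1.26 ± 0.32) with a median of 2569 CPM at D1, against 5638 CPM at E17 (adjusted p = 0.00464), and the groups did not overlap for any of these 4 genes. The MYBPC1 call was lost when 24 or 72 libraries were fitted (adjusted p = 0.0762 and 0.0788). The groups overlapped for MYBPC3, cardiac myosin-binding protein C (-1.13 ± 0.35, adjusted p = 0.0170), MYH7, slow beta myosin heavy chain (-1.70 ± 0.59, adjusted p = 0.0271), and MYOZ2, a Z-disc partner of calcineurin (-0.64 ± 0.26, adjusted p = 0.0490). The MYBPC3 call was lost without D1 libraries 1 and 6 and E17 library 5 (adjusted p = 0.0708). The MYH7 call was lost without D1 library 1 or 5 or E17 library 1 (-1.11 without the last, adjusted p = 0.0937), and that of MYOZ2 when any 1 of 9 of the 12 libraries was left out (adjusted p up to 0.102). The slow and embryonic list had a median log2 fold change of -0.64 against -0.0057 over all genes.

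The 3 that rose are not myofilament isoforms. PLN, phospholamban, the inhibitor of the slow calcium pump, had 39.6 to 222 CPM (median 66.7) at D1, against 6.38 to 15.3 CPM (median 9.63) at E17 (3.42 ± 0.49, adjusted p = 8.64e-05). SMPX, a small cytoskeletal protein of striated muscle, had 181 to 689 CPM (median 430.2) at D1, against 41.5 to 104 CPM (median 75.8) at E17 (2.68 ± 0.32, adjusted p = 2.12e-05). ANKRD1, a titin-binding protein known to respond to stretch, had 29.1 to 317 CPM (median 159) at D1, against 28.2 to 77.3 CPM (median 38.4) at E17 (1.91 ± 0.57, adjusted p = 0.0129; 1.36 with the replicate number as a block, adjusted p = 0.0604). PLN and SMPX did not overlap between the groups, while ANKRD1 did.

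Among the fast isoforms, the sarcoplasmic calcium-binding protein CASQ1 (fast calsequestrin) had 76.7 to 182 CPM (median 126) at D1, against 11.6 to 19.5 CPM (median 16.5) at E17 (2.95 ± 0.21, adjusted p = 4.86e-07). MYBPC2, fast myosin-binding protein C, had 827 to 1216 CPM (median 1023) at D1, against 109 to 329 CPM (median 206) at E17 (2.23 ± 0.26, adjusted p = 1.97e-05). Both rose with no overlap. The fast myosin heavy chains moved in opposite directions: MYH1B had 6305 to 40353 CPM (median 13407) at D1, against 4297 to 8871 CPM (median 5411) at E17 (1.67 ± 0.38, adjusted p = 0.00279). MYH1C had 3868 to 13165 CPM (median 7529) at D1, against 14880 to 26223 CPM (median 20049) at E17 (-1.38 ± 0.27, adjusted p = 0.000856). D1 library 3 held the most MYH1B and D1 library 1 the least, and the groups overlapped for MYH1B but not for MYH1C. These genes lie in a cluster of near-identical copies on chromosome 18 (MYH1B at 1119963 to 1138129 and MYH1C at 1229272 to 1246601 on GRCg7b), so reads may have been divided between them and both values are uncertain. MYOZ1, the calsarcin of fast fibres, rose by 0.57 ± 0.17 (adjusted p = 0.0131). PVALB, parvalbumin, a calcium buffer, rose by 1.82 ± 0.52 (adjusted p = 0.00970), with medians of 1.11 CPM at D1, against 0.347 CPM at E17. MYLPF, the fast regulatory light chain, rose by 0.38 ± 0.15 (adjusted p = 0.0452). MYLPF lost its call when any 1 of 10 of the 12 libraries was left out (adjusted p up to 0.101).

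The remaining fast genes did not pass the test: TNNI2 (0.52 ± 0.23, adjusted p = 0.0720), TNNT3 (0.48 ± 0.23, adjusted p = 0.0974) and TPM1 (0.32 ± 0.16, adjusted p = 0.113). Nor did MYOM2 (0.32 ± 0.20, adjusted p = 0.193), MYL1 (0.10 ± 0.21, adjusted p = 0.690) or TNNC2 (-0.04 ± 0.13, adjusted p = 0.828). TNNI2 passed as higher in 5 alternatives (adjusted p = 0.00970 to 0.0411), TNNT3 in 3 alternatives (adjusted p = 0.00465 to 0.0417) and MYOM2 in 2 alternatives (adjusted p = 0.00822 to 0.0309), leaving out D1 library 1 being one of them for each gene. TPM1 passed without E17 library 2 (adjusted p = 0.0383). Of 13 fast contractile genes, 6 rose and 1 fell, with a median of 0.48.

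Other genes of the slow and embryonic list did not pass, and some of them ranged widely within each stage. MYH7B, a slow-type myosin heavy chain, ranged from 3.15 to 326 CPM within D1, against 6.63 to 205 CPM within E17 (1.00 ± 1.11, adjusted p = 0.466). MYL3, the slow and ventricular essential light chain, was at 103, 338, 118, 52.7, 1.67 and 1.997 CPM in D1 libraries 1 to 6, against 180.0, 26.2, 47.9, 0.492, 26.7 and 1.18 CPM in E17 libraries 1 to 6 (1.12 ± 1.27, adjusted p = 0.478). Both genes were high in D1 libraries 1 to 3 and low in D1 libraries 5 and 6, and high in E17 library 1 and low in E17 libraries 4 and 6. MYL2, the slow regulatory light chain, did not pass (0.59 ± 0.92, adjusted p = 0.612), nor did CASQ2 (0.09 ± 0.22, adjusted p = 0.744) or TPM3 (-0.14 ± 0.21, adjusted p = 0.604). Without D1 library 2, the highest of its group, TPM3 was at -0.40 and passed (adjusted p = 0.0184). ATP2A2, the slow calcium pump (-0.32 ± 0.32, adjusted p = 0.414), CSRP3 (-0.78 ± 0.70, adjusted p = 0.368) and MYL10 (-0.0003 ± 1.12, adjusted p = 0.9998) did not pass either.

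**Figure D2:**
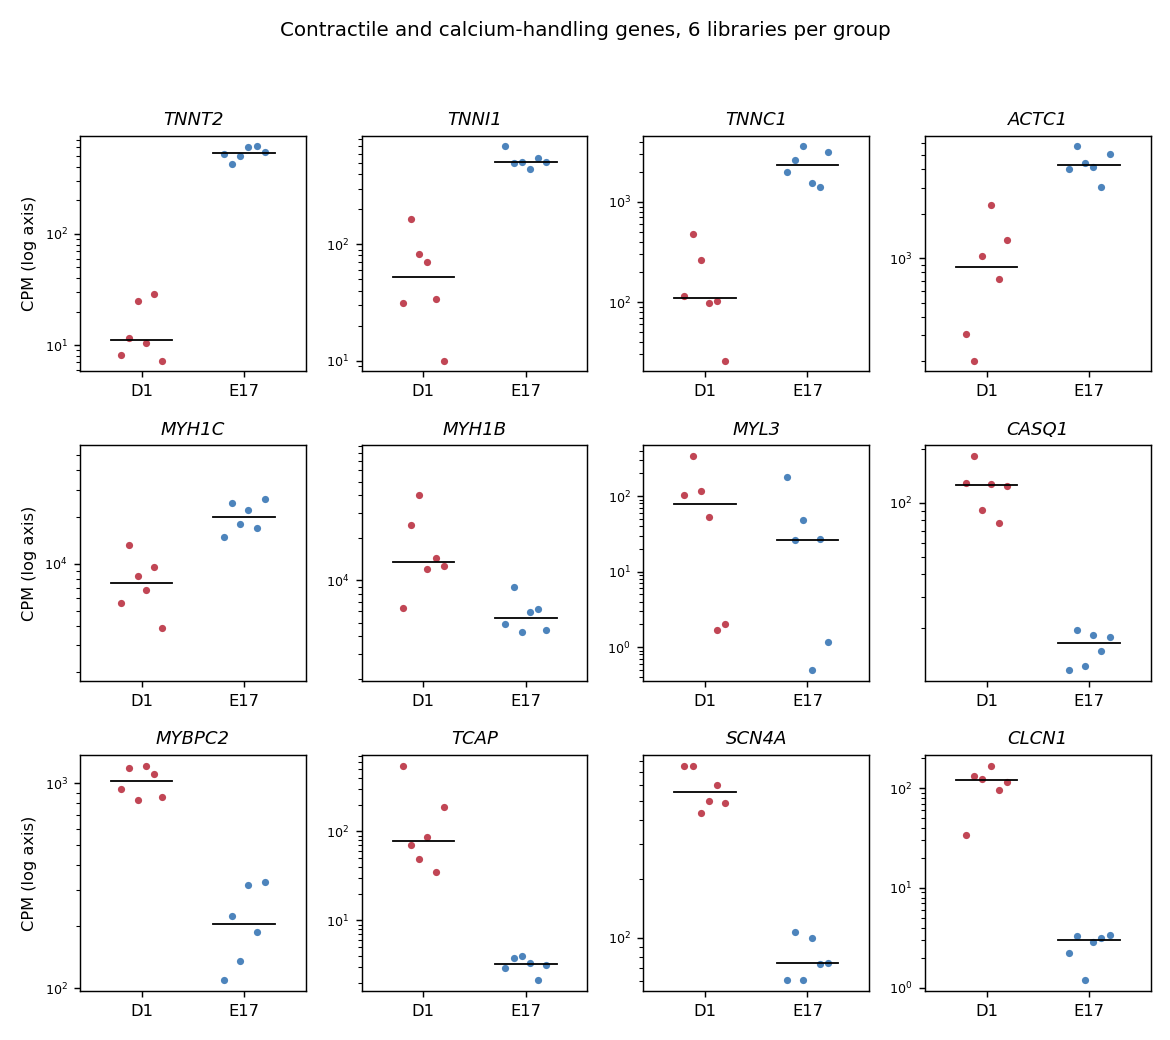
Level of 12 contractile and calcium-handling genes in each library (CPM, log axis), with D1 (red) left of E17 (blue) in each panel; points are libraries and bars are group medians. TNNT2, TNNI1, TNNC1, ACTC1 and MYH1C lie lower at D1 with no overlap, CLCN1, SCN4A, CASQ1 and MYBPC2 lie higher with no overlap, and MYL3 spreads more widely within each group than between them.

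The membrane system that couples excitation to contraction rose in 16 of 24 genes. CLCN1, the muscle chloride channel that stabilises the resting membrane, had 33.7 to 167 CPM (median 119.8) at D1, against 1.18 to 3.37 CPM (median 3.01) at E17 (log2 fold change 5.38 ± 0.38, adjusted p = 4.86e-07). SCN4A, the sodium channel of the muscle action potential, had 435 to 750.2 CPM (median 551) at D1, against 60.8 to 108 CPM (median 74.1) at E17 (2.88 ± 0.20, adjusted p = 3.72e-07). CACNA1S, the voltage sensor of the transverse tubule, had 1484 to 3186 CPM (median 1936) at D1, against 349 to 521 CPM (median 445) at E17 (2.23 ± 0.20, adjusted p = 3.00e-06). None of the 3 overlapped between groups. TRDN, triadin of the junctional reticulum (1.85 ± 0.20, adjusted p = 1.02e-05), KCNJ2, an inward-rectifier potassium channel (1.82 ± 0.18, adjusted p = 6.29e-06), and JPH1, junctophilin, which ties the reticulum to the tubule (1.33 ± 0.13, adjusted p = 4.75e-06), rose without overlap too. SLN, sarcolipin, an inhibitor of the calcium pump, rose with overlap (1.45 ± 0.24, adjusted p = 0.000274), D1 library 1 lying just inside the E17 range. The median of the list was 0.72. The 1 that fell was CAV3, the caveolin of muscle (-0.52 ± 0.17, adjusted p = 0.0190; not called with 72 libraries, adjusted p = 0.0795), and RYR3, a calcium release channel, did not pass (0.15 ± 0.18, adjusted p = 0.511).

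Structural proteins of the sarcomere split. TCAP, telethonin, which caps titin at the Z-disc, had 34.8 to 543 CPM (median 78.4) at D1, against 2.13 to 4.01 CPM (median 3.23) at E17 (log2 fold change 5.65 ± 0.69, adjusted p = 2.61e-05), and D1 library 1 stood far above the rest of its group (4.73 without it). The giant proteins rose by smaller factors with no overlap: TTN, titin, by 0.92 ± 0.14 (adjusted p = 0.000162) and NEB, nebulin, by 0.86 ± 0.15 (adjusted p = 0.000477). NRAP, a protein of myofibril assembly, rose by 1.41 ± 0.17 (adjusted p = 2.40e-05) and ACTN2, Z-disc alpha actinin, by 0.79 ± 0.21 (adjusted p = 0.00722). The pointed-end caps of the thin filament went opposite ways: TMOD4 had 203 to 445 CPM (median 313) at D1, against 42.5 to 113 CPM (median 72.04) at E17 (2.11 ± 0.27, adjusted p = 3.83e-05). TMOD1 had 143 to 291 CPM (median 222) at D1, against 463 to 736 CPM (median 597) at E17 (-1.52 ± 0.19, adjusted p = 2.64e-05). MYOM3, an M-band myomesin, fell to 34.6 to 241 CPM (median 58.1), against 267 to 682 CPM (median 404) at E17 (-2.12 ± 0.48, adjusted p = 0.00269), and OBSL1, a cytoskeletal adaptor, fell by 1.85 ± 0.33 (adjusted p = 0.000496). In all 9 of 24 scaffold genes rose and 7 fell (median 0.02). These shares were 37.5% and 29.2%, against 26.6% and 25.7% over all genes.

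Of the myogenic regulators, the determination factor MYOD1 rose and the differentiation factor MYOG fell. MYOD1 had 297 to 519 CPM (median 428) at D1, against 139 to 180.4 CPM (median 164) at E17 (log2 fold change 1.36 ± 0.15, adjusted p = 1.06e-05), with no overlap. MYOG, myogenin, which drives fusion of myoblasts into fibres, had 2.26 to 31.7 CPM (median 7.23) at D1, against 23.3 to 57.3 CPM (median 37.6) at E17 (-1.90 ± 0.53, adjusted p = 0.00883), and only D1 library 3 reached into the E17 range (-2.65 without it). PAX7, the satellite cell factor, had 23.7 to 58.1 CPM (median 40.9) at D1, against 65.8 to 96.1 CPM (median 77.1) at E17 (-1.01 ± 0.18, adjusted p = 0.000562) with no overlap. Since this is whole tissue, fewer cells of a type and less RNA per cell cannot be told apart, here and for every cell type named below. MYF5, the other determination factor, did not pass (0.14 ± 0.13, adjusted p = 0.364). MYF6, which is known for late differentiation, rose by 0.33 ± 0.12 (adjusted p = 0.0301), a call lost when any 1 of 6 of the 12 libraries was left out (adjusted p up to 0.0624).

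SIX4 and EYA2, partners in the network upstream of MYOD1, moved apart. SIX4 rose by 1.16 ± 0.22 (adjusted p = 0.000639) and EYA2 fell to 2.70 to 8.55 CPM (median 3.78), against 17.9 to 29.4 CPM (median 20.6) at E17 (-2.24 ± 0.28, adjusted p = 3.08e-05). In the Notch pathway, which holds satellite cells quiescent, the target HEYL had 8.28 to 19.2 CPM (median 14.8) at D1, against 41.7 to 57.9 CPM (median 47.2) at E17 (-1.75 ± 0.19, adjusted p = 9.81e-06). The receptor NOTCH1 fell by 0.68 ± 0.14 (adjusted p = 0.00141). Of 29 regulators 7 rose and 7 fell (24.1% each, median 0.10), both near the shares over all genes.

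Several genes of the neuromuscular junction fell. CHRNG, the fetal subunit of the acetylcholine receptor that innervated muscle replaces, had 22.7 to 79.5 CPM (median 38.3) at D1, against 90.4 to 172 CPM (median 123) at E17 (log2 fold change -1.60 ± 0.28, adjusted p = 0.000379), with no overlap and D1 library 1 nearest to E17. MUSK, the receptor kinase of the synapse (-0.83 ± 0.16, adjusted p = 0.000954), AGRN, agrin (-1.30 ± 0.20, adjusted p = 0.000137), and RAPSN, the receptor-clustering rapsyn (-0.47 ± 0.09, adjusted p = 0.00106), were lower in every D1 library than in any E17 library. The constant subunits CHRNA1 (-0.43 ± 0.43, adjusted p = 0.425) and CHRND (-0.25 ± 0.25, adjusted p = 0.416) did not pass. CHRND passed without D1 library 1 (-0.51, adjusted p = 0.0425). In all 5 of 13 fell and 1 rose, LAMB2, a laminin of the synaptic basal lamina (1.03 ± 0.34, adjusted p = 0.0202; not called without D1 libraries 1 and 6 and E17 library 5, adjusted p = 0.0974).

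The myostatin axis moved at several levels. MSTN, myostatin, the secreted inhibitor of muscle growth (chromosome 7, 305390 to 312076 on GRCg7b), had 4.15 to 12.8 CPM (median 7.45) at D1, against 81.8 to 255 CPM (median 190.0) at E17 (log2 fold change -4.47 ± 0.38, adjusted p = 1.75e-06), a 22.1-fold higher level at E17 in the fitted value. WFIKKN1, an extracellular protein that binds myostatin, had 3.000 to 12.6 CPM (median 7.14) at D1, against 59.0 to 149.9 CPM (median 110.1) at E17 (-3.81 ± 0.35, adjusted p = 2.74e-06). FST, follistatin, which neutralises myostatin and activins, moved the other way with 32.7 to 181 CPM (median 118) at D1, against 15.2 to 21.9 CPM (median 16.6) at E17 (2.68 ± 0.32, adjusted p = 2.29e-05). Groups did not overlap for any of the 3. INHBA, the activin A subunit, fell to 1.37 to 3.20 CPM (median 1.60), against 8.75 to 11.9 CPM (median 9.83) at E17 (-2.31 ± 0.24, adjusted p = 7.94e-06). ACVR2B, a receptor for myostatin and activin, rose by 1.24 ± 0.21 (adjusted p = 0.000289) with D1 library 1 inside the E17 range.

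The insulin-like growth factors moved apart. IGF1 had 0 to 2.32 CPM (median 1.35) at D1, against 4.98 to 6.66 CPM (median 5.97) at E17 (-2.29 ± 0.68, adjusted p = 0.0128) and fell without overlap. IGF2 had 10.4 to 25.4 CPM (median 22.5) at D1, against 11.5 to 16.1 CPM (median 13.7) at E17 (0.60 ± 0.19, adjusted p = 0.0149) with overlap, a call lost with library totals in place of TMM (adjusted p = 0.0548) and with the replicate number as a block (adjusted p = 0.0506). IGFBP2, a binding protein that sequesters both, had 21.4 to 58.3 CPM (median 43.0) at D1, against 97.1 to 135 CPM (median 127) at E17 (-1.52 ± 0.20, adjusted p = 4.40e-05). The receptor IGF1R did not pass (0.16 ± 0.14, adjusted p = 0.385). Downstream, IRS2, an adaptor of the insulin receptor, had 28.3 to 529.6 CPM (median 51.7) at D1, against 8.06 to 14.9 CPM (median 11.2) at E17 (3.55 ± 0.71, adjusted p = 0.00107), with D1 library 6 at 529.6 CPM and the next highest at 81.8 CPM (2.17 without library 6). MTOR, the growth kinase, rose by 1.51 ± 0.22 (adjusted p = 0.000122), and EIF4EBP1, the translational repressor that it phosphorylates, also rose, by 1.49 ± 0.14 (adjusted p = 4.62e-06). STC2, stanniocalcin 2, which in mammals blocks release of IGF from its binding proteins, had 136 to 1936 CPM (median 549.8) at D1, against 18.2 to 60.5 CPM (median 34.1) at E17 (4.39 ± 0.58, adjusted p = 5.03e-05; 3.80 without D1 library 6). Of 38 genes of both pathways 15 rose and 12 fell (median 0.12). These shares were 39.5% and 31.6%, against 26.6% and 25.7% over all genes.

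**Figure D3:**
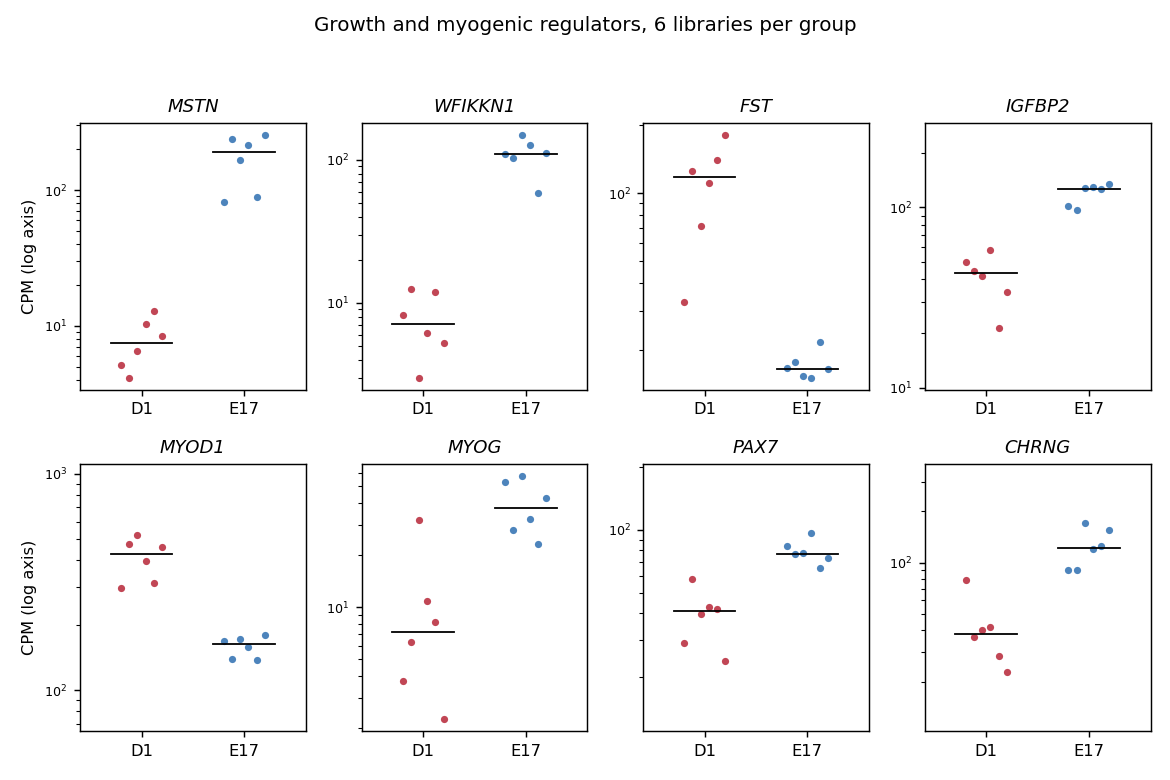
Level of 8 growth and myogenic regulators in each library (CPM, log axis), with D1 (red) left of E17 (blue) in each panel; points are libraries and bars are group medians. MSTN and WFIKKN1 lie far lower at D1, FST and MYOD1 lie higher, and MYOG is the 1 gene of the panel whose groups overlap through D1 library 3.

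Cell division genes leaned lower at D1 by their median, but the share called lower was near that over all genes. BIRC5, survivin of the dividing chromosomes, had 1.61 to 10.04 CPM (median 5.74) at D1, against 12.1 to 16.96 CPM (median 14.2) at E17 (-1.27 ± 0.32, adjusted p = 0.00493). CCNE2, cyclin E2 of the G1 to S transition (-1.80 ± 0.37, adjusted p = 0.00140), and E2F8, a repressor of the E2F programme (-1.44 ± 0.23, adjusted p = 0.000235), fell without overlap. So did MAD2L1 of the spindle checkpoint (-1.43 ± 0.33, adjusted p = 0.00289) and ANLN, anillin of the cleavage furrow (-1.37 ± 0.43, adjusted p = 0.0169). TOP2A, topoisomerase II alpha, had 10.3 to 153 CPM (median 83.0) at D1, against 103 to 172 CPM (median 136) at E17 (-0.83 ± 0.48, adjusted p = 0.161). CDK1 was at -1.12 ± 0.49 (adjusted p = 0.0708) and PCNA at -0.12 ± 0.13 (adjusted p = 0.458), and none of these passed. CDK1 passed as lower in 5 alternatives (adjusted p = 0.0174 to 0.0473), among them without D1 library 3 (-1.52). The median over 59 genes was -0.89, with 17 lower (28.8%, against 25.7% over all genes) and 1 higher (1.69%, against 26.6%). The count depended on the fit: 42 were lower without D1 library 3, 10 without E17 library 1 and 11 without E17 library 2, and DESeq2 called 32 lower. Cytosolic ribosomal protein genes moved little, with 14 of 61 lower (23%, near the share over all genes) and 1 higher (1.64%), and a median of -0.14. With library totals in place of TMM 32 were lower, and 8 were without D1 library 2 or 4 or E17 library 4, 5 or 6. RPS15 (-0.59 ± 0.09, adjusted p = 0.000187) and RPS3A (-0.53 ± 0.12, adjusted p = 0.00188) were among the lower ones.

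Mitochondrial genes rose as a body. Of 59 nuclear genes of oxidative phosphorylation 58 rose and 0 fell, with a median of 1.07, against 26.6% higher over all genes; the exception, COX7A2, did not pass (0.05 ± 0.16, adjusted p = 0.819). CYCS, cytochrome c, had 183 to 611 CPM (median 319.9) at D1, against 45.3 to 95.5 CPM (median 49.98) at E17 (log2 fold change 2.50 ± 0.30, adjusted p = 2.28e-05). NDUFV1, a core subunit of complex I, had 378 to 576 CPM (median 445) at D1, against 127 to 181 CPM (median 147) at E17 (1.60 ± 0.12, adjusted p = 6.56e-07). UQCR11 of complex III had 84.6 to 175 CPM (median 135) at D1, against 30.9 to 47.8 CPM (median 32.9) at E17 (1.88 ± 0.17, adjusted p = 3.15e-06). No library of D1 fell into the E17 range for these 3. COX1, the cytochrome oxidase subunit of mitochondrial DNA rose less, with 16890 to 31873 CPM (median 27775) at D1, against 14235 to 18395 CPM (median 16403) at E17 (0.73 ± 0.16, adjusted p = 0.00231), and overlapped.

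Of 23 genes of the citrate cycle and its feeders 22 rose and 0 fell (median 1.40). CS, citrate synthase, its entry enzyme, had 631 to 1093 CPM (median 891) at D1, against 194 to 299.6 CPM (median 230.3) at E17 (1.84 ± 0.16, adjusted p = 1.68e-06). OGDH, of the 2-oxoglutarate dehydrogenase complex, had 666 to 1103 CPM (median 933) at D1, against 173 to 247 CPM (median 188) at E17 (2.25 ± 0.14, adjusted p = 1.82e-07). The groups were apart for both. SUCLG2, the GTP-forming ligase subunit, was the gene that did not pass (-0.09 ± 0.19, adjusted p = 0.702). SLC25A4, the adenine nucleotide carrier that exports ATP, had 2739 to 5555 CPM (median 3416) at D1, against 81.2 to 149 CPM (median 104) at E17 (log2 fold change 5.08 ± 0.24, adjusted p = 3.18e-08). CKMT2, mitochondrial creatine kinase of muscle, had 246 to 848 CPM (median 337) at D1, against 6.12 to 17.4 CPM (median 12.4) at E17 (5.30 ± 0.43, adjusted p = 1.22e-06). The fitted folds were 33.8 and 39.4, with no overlap in either gene. The mitochondrial ribosome rose by less, with 38 of 67 higher and 1 lower and a median of 0.35; MRPL2 had 169.8 to 221 CPM (median 193) at D1, against 70.6 to 102 CPM (median 73.5) at E17 (1.26 ± 0.12, adjusted p = 3.88e-06).

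Lipid fuel genes rose, some of them by large factors. UCP3, a carrier of the mitochondrial inner membrane, had 24.6 to 241 CPM (median 98.9) at D1, against 0.170 to 0.6999 CPM (median 0.224) at E17 (log2 fold change 8.53 ± 0.69, adjusted p = 1.15e-06), the largest rise taken by the naming rule. PNPLA2, adipose triglyceride lipase, the first step of fat breakdown, had 849 to 2331 CPM (median 1752) at D1, against 30.8 to 46.4 CPM (median 36.2) at E17 (5.54 ± 0.26, adjusted p = 3.18e-08). HADHB, a subunit of the mitochondrial trifunctional protein, had 824 to 1323 CPM (median 1225) at D1, against 155 to 192 CPM (median 178) at E17 (2.75 ± 0.13, adjusted p = 3.18e-08). The groups were far apart for all 3, and UCP3 was uneven among the D1 libraries, from 24.6 CPM in library 5 to 241 CPM in library 6.

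RNA of genes for fatty acid uptake rose as well: CD36, the fatty acid translocase, had 269 to 580.3 CPM (median 299) at D1, against 28.1 to 41.99 CPM (median 34.7) at E17 (3.31 ± 0.20, adjusted p = 1.82e-07). SLC27A1, a fatty acid transport protein, had 82.9 to 205 CPM (median 111) at D1, against 8.65 to 12.1 CPM (median 9.96) at E17 (3.72 ± 0.25, adjusted p = 3.40e-07). FABP3, the fatty acid carrier of muscle, had 566 to 1369 CPM (median 888) at D1, against 132 to 199 CPM (median 188) at E17 (2.40 ± 0.20, adjusted p = 1.26e-06). All 3 were free of overlap. ACSL1, which activates fatty acids for oxidation, rose by 2.41 ± 0.26 (adjusted p = 1.15e-05). CPT1A, the gate of mitochondrial entry, rose by 1.40 ± 0.19 (adjusted p = 6.50e-05), with no overlap. ACACB, the acetyl-CoA carboxylase that makes the inhibitor of that gate, also rose, with 335 to 686 CPM (median 446) at D1, against 23.6 to 48.2 CPM (median 30.7) at E17 (3.87 ± 0.22, adjusted p = 1.46e-07). Of 35 genes of uptake and oxidation 23 rose and 2 fell (median 0.76).

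Regulators that spare glucose rose as well. PDK4, the kinase that shuts pyruvate dehydrogenase, was at 7668, 3186, 4609, 2256, 656 and 14124 CPM in D1 libraries 1 to 6, against 111 to 443 CPM (median 281) at E17 (log2 fold change 4.25 ± 0.64, adjusted p = 0.000124). The D1 libraries spread widely, with library 5 lowest and library 6 highest, and all lay above E17. PDK2, a second kinase of the set, was more even, with 125 to 303 CPM (median 183) at D1, against 24.2 to 40.5 CPM (median 33.1) at E17 (2.60 ± 0.23, adjusted p = 2.04e-06). KLF15, a regulator of amino acid and lipid use, rose by 2.52 ± 0.35 (adjusted p = 6.77e-05). LPIN1, a phosphatidate phosphatase and coactivator, rose by 3.67 ± 0.52 (adjusted p = 7.77e-05; 3.02 without D1 library 6). PPARGC1A, the coactivator of mitochondrial biogenesis, rose by 1.72 ± 0.28 (adjusted p = 0.000241) and PPARA, the fatty acid-sensing receptor, by 1.42 ± 0.16 (adjusted p = 1.80e-05). Of 24 genes of fuel choice 15 rose and 1 fell (median 0.90).

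Several muscle forms of the glycolytic enzymes rose while forms best known from other tissues fell. LDHA, muscle lactate dehydrogenase, had 609.6 to 4447 CPM (median 1475) at D1, against 72.8 to 170.3 CPM (median 132) at E17 (log2 fold change 3.83 ± 0.49, adjusted p = 3.78e-05). PFKM, muscle phosphofructokinase, had 1387 to 7433 CPM (median 2979) at D1, against 355 to 579 CPM (median 466) at E17 (2.87 ± 0.34, adjusted p = 2.22e-05), with D1 library 1 highest, and GAPDH had 6118 to 16758 CPM (median 12780) at D1, against 3738 to 5114 CPM (median 4166) at E17 (1.50 ± 0.21, adjusted p = 7.45e-05). The groups were apart in each. GPD1, which passes cytosolic reducing equivalents to glycerol phosphate, had 122 to 812 CPM (median 302) at D1, against 4.31 to 20.1 CPM (median 8.72) at E17 (5.07 ± 0.56, adjusted p = 1.24e-05). PPP1R3C, a glycogen-targeting phosphatase subunit, rose by 3.23 ± 0.54 (adjusted p = 0.000286). FBP2, muscle fructose bisphosphatase, rose by 3.31 ± 0.41 (adjusted p = 3.17e-05), and PFKFB1, which makes and removes the activator of phosphofructokinase, by 3.13 ± 0.23 (adjusted p = 5.15e-07). PHKG1, the catalytic subunit of muscle phosphorylase kinase, had 333 to 420.1 CPM (median 362) at D1, against 67.4 to 86.8 CPM (median 76.1) at E17 (2.28 ± 0.10, adjusted p = 2.88e-08).

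In the other direction, ENO1, the enolase of most tissues, had 686 to 985 CPM (median 897) at D1, against 1782 to 2556 CPM (median 2163) at E17 (-1.30 ± 0.12, adjusted p = 3.21e-06). ALDOC, brain aldolase, had 57.2 to 108 CPM (median 69.9) at D1, against 279.8 to 419 CPM (median 390.1) at E17 (-2.31 ± 0.17, adjusted p = 5.22e-07). PHKA2, the liver regulatory subunit of phosphorylase kinase, had 4.44 to 28.5 CPM (median 6.47) at D1, against 53.0 to 128 CPM (median 66.4) at E17 (-3.00 ± 0.46, adjusted p = 0.000153; -3.66 without D1 library 6). None of these overlapped. The other 4 that fell were PFKL (-0.57), PFKP (-0.55), PYGL (-0.76) and GYG2 (-2.55), named in mammals for liver or platelet forms. Of 39 genes of glycolysis and glycogen 21 rose and 7 fell (median 0.88).

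**Figure D4:**
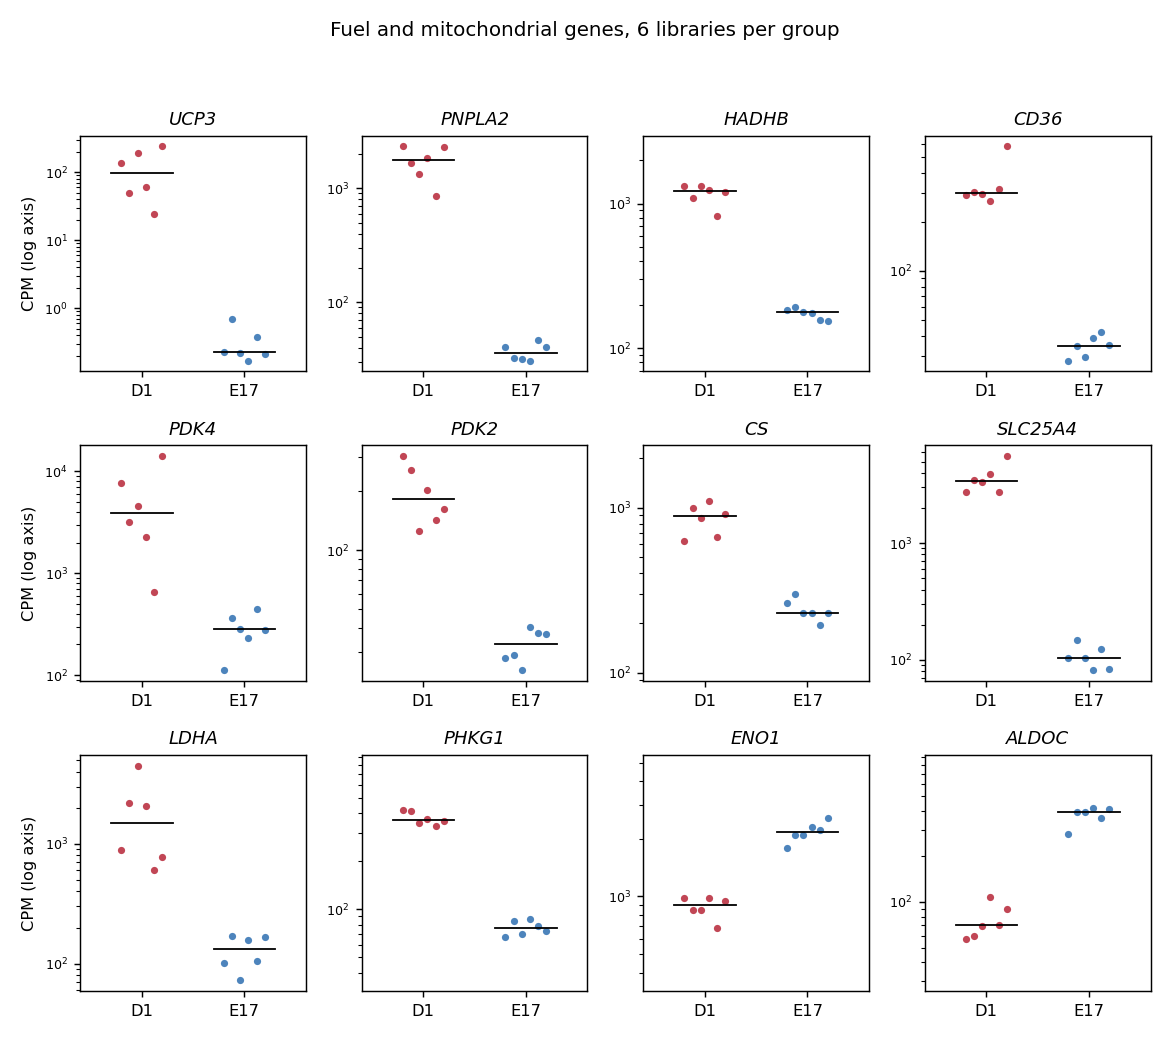
Level of 12 fuel and mitochondrial genes in each library (CPM, log axis), with D1 (red) left of E17 (blue) in each panel; points are libraries and bars are group medians. The groups do not overlap in any panel; UCP3 and PDK4 spread widely within D1, while HADHB, PHKG1 and CS are tight, and ENO1 and ALDOC lie lower at D1.

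Several genes of muscle protein breakdown rose at D1. FBXO32, the ubiquitin ligase atrogin-1, had 100.2 to 1660 CPM (median 439) at D1, against 30.3 to 53.1 CPM (median 34.9) at E17 (log2 fold change 3.92 ± 0.58, adjusted p = 0.000107). TRIM63, the ligase MuRF1, had 182 to 1782 CPM (median 335) at D1, against 108 to 151 CPM (median 115) at E17 (2.19 ± 0.48, adjusted p = 0.00198). KLHL38, a Kelch-family protein of muscle, had 9.52 to 444 CPM (median 32.7) at D1, against 1.07 to 2.38 CPM (median 1.41) at E17 (6.04 ± 0.99, adjusted p = 0.000259). Groups did not overlap, and D1 library 6 was the highest for all 3, at 1660, 1782 and 444 CPM. Without it the log2 fold changes were 3.23, 1.37 and 4.39, all past the threshold. Autophagy genes rose with less spread. ULK1, the initiating kinase, had 101 to 171 CPM (median 138) at D1, against 30.7 to 39.7 CPM (median 33.1) at E17 (1.97 ± 0.14, adjusted p = 4.86e-07). MAP1LC3A, an LC3 protein of the autophagosome, rose by 2.60 ± 0.32 (adjusted p = 2.51e-05). Of 26 such genes 17 rose and 2 fell (median 0.96), and of 33 proteasome subunits 13 rose and 2 fell (median 0.25). The proteasome shares were 39.4% and 6.06%, against 26.6% and 25.7% over all genes. With library totals in place of TMM 8 proteasome subunits rose (median 0.105).

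In a list of the glucocorticoid receptor, its targets and hormone handling, several genes rose: 11 of 18, with 1 lower and a median of 1.53. FKBP5, the receptor co-chaperone that is a standard readout of the hormone, was at 1192, 256, 223, 739, 478 and 1966 CPM in D1 libraries 1 to 6, against 29.0 to 61.9 CPM (median 47.5) at E17 (log2 fold change 4.08 ± 0.52, adjusted p = 3.76e-05). Libraries 1 and 6 were highest at D1. CEBPD, a transcription factor induced early by the hormone, had 53.7 to 804 CPM (median 229) at D1, against 8.50 to 17.3 CPM (median 11.9) at E17 (4.75 ± 0.59, adjusted p = 2.97e-05). GLUL, glutamine synthetase, had 107 to 1264 CPM (median 223) at D1, against 41.5 to 53.6 CPM (median 47.5) at E17 (3.17 ± 0.57, adjusted p = 0.000498). SESN1, a stress-responsive inhibitor of MTOR signalling, had 399.8 to 4802 CPM (median 876) at D1, against 102 to 227 CPM (median 179) at E17 (3.16 ± 0.57, adjusted p = 0.000494). In each of these, too, libraries 1 and 6 were the highest of D1 and no groups overlapped. Without library 6 GLUL was at 2.44 and SESN1 at 2.35. HSD11B2, which inactivates the hormone, rose by 3.64 ± 0.37 (adjusted p = 7.04e-06), and the receptor gene NR3C1 did not pass (-0.16 ± 0.09, adjusted p = 0.177). NR3C1 passed as lower in 2 alternatives (adjusted p = 0.0320 to 0.0413).

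KLF9, induced by both thyroid hormone and glucocorticoid, had 46.5 to 161 CPM (median 68.5) at D1, against 2.71 to 7.26 CPM (median 4.26) at E17 (4.31 ± 0.37, adjusted p = 1.68e-06), with the groups apart. Among thyroid genes THRA, the main receptor of muscle, had 111 to 134 CPM (median 124) at D1, against 64.0 to 82.3 CPM (median 74.9) at E17 (0.74 ± 0.08, adjusted p = 1.45e-05), and its partner RXRA rose by 1.03 ± 0.12 (adjusted p = 2.32e-05). The other receptor THRB (-0.17 ± 0.44, adjusted p = 0.767), the activating deiodinase DIO2 (-1.19 ± 0.63, adjusted p = 0.129) and the inactivating DIO3 (-0.51 ± 0.40, adjusted p = 0.3003) did not pass. THRB and DIO2 were at low levels, with medians of 0.460 and 0.645 CPM at D1, against 0.869 and 1.56 CPM at E17. Of 14 thyroid genes 6 rose and 2 fell (median 0.12).

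Several circadian clock genes also rose. NR1D1, the repressor REV-ERB alpha, had 6.10 to 42.01 CPM (median 13.4) at D1, against 0.126 to 0.410 CPM (median 0.220) at E17 (log2 fold change 6.35 ± 0.60, adjusted p = 3.54e-06). NR1D2, its paralogue, had 79.4 to 213 CPM (median 112) at D1, against 9.05 to 17.4 CPM (median 14.3) at E17 (3.19 ± 0.24, adjusted p = 5.86e-07). CLOCK, the activator, rose by 1.68 ± 0.11 (adjusted p = 2.02e-07) with no overlap, while its partner ARNTL (0.22 ± 0.19, adjusted p = 0.360) and the repressor PER2 (0.45 ± 0.35, adjusted p = 0.288) did not pass. Of 18 clock genes 9 rose and 1 fell (median 0.46). The hour of sampling is not given in the sources used here, so hour and stage cannot be told apart. Immediate early genes, which respond within minutes to handling and stress, rose in 13 of 23 and fell in 2 (median 1.11). FOS had 26.2 to 445 CPM (median 78.2) at D1, against 7.86 to 15.7 CPM (median 12.1) at E17 (3.57 ± 0.58, adjusted p = 0.000241; 2.77 without D1 library 6). DUSP1, a phosphatase of MAP kinases, rose by 2.31 ± 0.21 (adjusted p = 2.63e-06), while JUN (0.15 ± 0.25, adjusted p = 0.623) did not pass.

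Many connective tissue genes fell. COL1A1, a chain of type I collagen, had 3268 to 12740 CPM (median 4192) at D1, against 13544 to 20318 CPM (median 15953) at E17 (log2 fold change -1.40 ± 0.34, adjusted p = 0.00404). Its partner COL1A2 had 3341 to 11223 CPM (median 4233) at D1, against 14442 to 20766 CPM (median 16248) at E17 (-1.47 ± 0.33, adjusted p = 0.00224). COL3A1, of the fine fibres of the endomysium, had 3439 to 11471 CPM (median 8027) at D1, against 12474 to 22110 CPM (median 15158) at E17 (-1.05 ± 0.26, adjusted p = 0.00464). COL14A1, a fibril-associated collagen of dense connective tissue, had 18.1 to 97.5 CPM (median 36.4) at D1, against 905 to 1256 CPM (median 1205) at E17 (-4.57 ± 0.39, adjusted p = 1.70e-06). The groups did not overlap for these 4 genes, although D1 libraries 4 and 6, at 10008 and 12740 CPM of COL1A1, were close to E17. Among proteoglycans LUM, lumican, had 50.04 to 286 CPM (median 180.3) at D1, against 673 to 746 CPM (median 704) at E17 (-2.07 ± 0.30, adjusted p = 0.000102). DCN, decorin, a binder of collagen and TGF-beta, had 459 to 1234 CPM (median 662) at D1, against 1480 to 2014 CPM (median 1772) at E17 (-1.18 ± 0.22, adjusted p = 0.000732). SPARC, a collagen-binding matricellular protein, fell by 1.77 ± 0.17 (adjusted p = 4.70e-06).

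Of 42 matrix genes 25 fell and 2 rose (median -1.08). THBS1, thrombospondin 1, was one that rose, with 24.3 to 472 CPM (median 55.0) at D1, against 8.76 to 20.6 CPM (median 13.2) at E17 (3.14 ± 0.68, adjusted p = 0.00192) and D1 library 6 far above the next (1.87 without it). The other was ELN, elastin (0.74 ± 0.26, adjusted p = 0.0292), whose call was lost when any 1 of 5 of the 12 libraries was left out (adjusted p up to 0.0701). In the basement membrane 15 of 25 fell and 3 rose (median -0.54; 1 rose without D1 libraries 1 and 6 and E17 library 5). COL18A1, the parent of endostatin, had 60.5 to 376 CPM (median 255) at D1, against 1062 to 1429 CPM (median 1226) at E17 (-2.36 ± 0.32, adjusted p = 5.46e-05). LAMA4, an early laminin chain, had 108 to 374 CPM (median 308) at D1, against 815 to 1057 CPM (median 829) at E17 (-1.60 ± 0.23, adjusted p = 8.92e-05). The fibroblast marker list, which shares COL1A1, COL3A1, DCN and LUM with the matrix list, summed to 9276 to 27505 CPM at D1, against 30474 to 47932 CPM at E17, with no overlap, and 14 of its 25 genes fell and 3 rose. Its surface markers moved apart. PDGFRA fell with overlap (-0.41 ± 0.14, adjusted p = 0.0258; not called without E17 library 4, 5 or 6, adjusted p up to 0.0561). FAP had 12.9 to 54.7 CPM (median 36.9) at D1, against 74.7 to 138 CPM (median 103) at E17 (-1.47 ± 0.28, adjusted p = 0.000791), and THY1 rose by 1.51 ± 0.22 (adjusted p = 8.60e-05). The part of fibroblast number in the matrix values was not tested.

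Other cell types moved unevenly. Endothelial markers summed to 1520 to 2492 CPM at D1, against 1367 to 1564 CPM at E17, and 10 of 26 rose and 2 fell (median 0.36; 5 fell without D1 library 5). VWF, von Willebrand factor, had 156 to 508 CPM (median 287) at D1, against 40.2 to 57.4 CPM (median 47.9) at E17 (2.58 ± 0.25, adjusted p = 4.68e-06). MMRN1, multimerin of endothelium and platelets, had 8.83 to 39.1 CPM (median 29.1) at D1, against 1.32 to 6.001 CPM (median 4.05) at E17 (2.73 ± 0.40, adjusted p = 0.000110). CDH5, the endothelial cadherin, fell by 0.60 ± 0.16 (adjusted p = 0.00682). PECAM1, an adhesion molecule of endothelium, rose by 0.36 ± 0.13 (adjusted p = 0.0356), a call lost when any 1 of 6 of the 12 libraries was left out (adjusted p up to 0.0692). Markers of the same cells thus differed in direction.

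Among Schwann cell genes, MBP, myelin basic protein, had 109.7 to 261 CPM (median 185) at D1, against 44.1 to 95.5 CPM (median 67.2) at E17 (1.47 ± 0.23, adjusted p = 0.000203), with no overlap. The immature Schwann cell receptor NGFR fell to 4.30 to 13.6 CPM (median 7.31), against 25.5 to 38.6 CPM (median 35.0) at E17 (-1.98 ± 0.26, adjusted p = 4.71e-05), and ERBB3, the neuregulin receptor of these cells, fell by 1.14 ± 0.16 (adjusted p = 8.78e-05). In the list of 18 genes 5 rose and 5 fell (27.8% each, median 0.06), both near the shares over all genes.

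Leukocyte markers summed to 301 to 394 CPM at D1, against 455 to 558 CPM at E17, without overlap. Of 31 such genes 10 fell and 4 rose (median -0.20). The shares were 32.3% lower and 12.9% higher, against 25.7% and 26.6% over all genes. CD74, the MHC class II invariant chain, had 30.2 to 55.6 CPM (median 38.5) at D1, against 76.5 to 121 CPM (median 88.3) at E17 (-1.21 ± 0.16, adjusted p = 5.03e-05). MRC1, the macrophage mannose receptor, rose by 1.23 ± 0.16 (adjusted p = 4.22e-05), and the common marker PTPRC did not pass (0.02 ± 0.30, adjusted p = 0.951). HBE1, an early beta-type globin, had 1.08 to 16.6 CPM (median 5.48) at D1, against 14.8 to 53.8 CPM (median 46.2) at E17 (-2.62 ± 0.51, adjusted p = 0.000863) and fell. HBA1, an adult alpha globin, had 57.1 to 327 CPM (median 81.3) at D1, against 168 to 338 CPM (median 253) at E17 (-0.96 ± 0.39, adjusted p = 0.0523) and did not pass. HBA1 passed as lower in 8 alternatives (adjusted p = 0.000255 to 0.04998), among them without D1 library 6 (-1.52). The globin genes HBAD and HBBA were called lower too. On the scale of the 24 White Plymouth Rock libraries, HBAD had 41.7 ± 38.1 CPM at D1, against 121 ± 39.0 CPM at E17 (mean ± SD). HBBA had 132 ± 116 CPM at D1, against 319 ± 101 CPM at E17. Globin genes are related copies, so some reads may have been divided between them and their values are uncertain. The red cell list as a whole summed to 2377 to 2968 CPM at D1, against 2026 to 2927 CPM at E17, with overlap. Of its 20 genes 4 rose, TFRC and BPGM among them, and 5 fell. These shares were 20% and 25%, against 26.6% and 25.7% over all genes. The sum thus mixes genes that rose with globins that fell.

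Adipocyte markers summed to 985 to 1551 CPM at D1, against 483 to 624 CPM at E17, but ADIPOQ, adiponectin, the defining one, was not past the threshold (0.45 ± 0.23, adjusted p = 0.113). ADIPOQ passed in 2 alternatives (adjusted p = 0.00759 to 0.0411). The members that rose were GPD1, CD36, the retinol carrier RBP4 (1.88), the lipid droplet protein CIDEA (2.36; 1.58 without D1 library 1) and DGAT2, which makes triglyceride (1.83); GPD1 and CD36 are also expressed by muscle fibres. Skin markers were low and uneven: KRT14, the basal keratin, had 1.28 to 3.11 CPM (median 1.66) at D1, against 3.39 to 20.8 CPM (median 5.48) at E17 (-2.19 ± 0.43, adjusted p = 0.000979), with E17 libraries 1 and 5 highest. Of 11 skin markers tested 8 fell and 0 rose (median -2.38). The summed skin markers stood above the D1 range of 22.7 to 40.9 CPM only in E17 libraries 1 and 5. The other E17 libraries, at 33.5 to 37.0 CPM, lay within it.

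Other large changes were these. ASB4, a substrate adaptor of ubiquitin ligases, had 30.03 to 64.6 CPM (median 47.3) at D1, against 0.166 to 1.36 CPM (median 0.753) at E17 (6.14 ± 0.48, adjusted p = 8.34e-07). HSPB7, a small heat shock protein of striated muscle and a member of the chaperone list, had 43.6 to 479.8 CPM (median 116) at D1, against 1.25 to 3.81 CPM (median 2.29) at E17 (6.13 ± 0.58, adjusted p = 3.66e-06). TULP1 (5.28 ± 1.04, adjusted p = 0.000945) and NXNL1 (5.11 ± 0.60, adjusted p = 1.94e-05) also rose. D1 library 6 was the highest for HSPB7 and TULP1 (5.44 and 3.59 without it) and library 1 for NXNL1. Among those that fell, NES, nestin, the intermediate filament of myoblasts and young fibres, had 20.96 to 114 CPM (median 57.0) at D1, against 1407 to 2518 CPM (median 1536) at E17 (log2 fold change -4.78 ± 0.36, adjusted p = 7.04e-07). EFHD2, a calcium-binding actin regulator, had 0.335 to 1.28 CPM (median 0.523) at D1, against 28.1 to 74.4 CPM (median 42.6) at E17 (-6.19 ± 0.38, adjusted p = 1.82e-07). FAM81A had 0 to 1.85 CPM (median 0.502) at D1, against 35.6 to 55.4 CPM (median 48.3) at E17 (-6.30 ± 0.61, adjusted p = 4.62e-06; -7.04 without D1 library 6). KCNIP1, a potassium channel-interacting protein, had 0.298 to 4.404 CPM (median 0.530) at D1, against 34.2 to 64.9 CPM (median 47.6) at E17 (-5.32 ± 0.64, adjusted p = 2.30e-05; -6.47 without D1 library 4). MAT1A, the liver enzyme that makes S-adenosylmethionine, had 4.32 to 103 CPM (median 37.0) at D1, against 926 to 1445 CPM (median 1200) at E17 (-4.65 ± 0.58, adjusted p = 3.28e-05). PNOC, the precursor of nociceptin, had 0.708 to 9.04 CPM (median 3.68) at D1, against 99.3 to 205 CPM (median 138) at E17 (-5.02 ± 0.56, adjusted p = 1.30e-05). The rule that took these genes required that groups do not overlap. The others that fell were SDR42E2 (-5.07; -5.94 without D1 library 3), GPM6A (-4.99), SLC25A48 (-4.86), ADAM11 (-4.69) and KRT24, a keratin of the skin list (-7.29), the last highest in E17 library 5 at 89.2 CPM (-5.51 without it).

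The later stages of the same breed show which D1 levels were transient. These values are a description on the scale of the 24 White Plymouth Rock libraries, as mean ± SD of 6 libraries at E17, D1, D21 and D42 in that order. HADHB stood at 154 ± 14.1, 1048 ± 170.0, 201 ± 16.1 and 207 ± 37.2 CPM. CS stood at 214 ± 33.6, 774 ± 161, 265 ± 32.4 and 262 ± 32.9 CPM. PNPLA2 stood at 32.8 ± 5.27, 1547 ± 515, 299 ± 47.0 and 343 ± 82.7 CPM. For all 3 the D1 mean was the highest of the 4 stages and the D21 and D42 means lay between E17 and D1. PDK4 stood at 253 ± 98.9, 4884 ± 4435, 633 ± 222 and 665 ± 363 CPM. STC2 stood at 30.5 ± 13.3, 651 ± 586, 23.0 ± 11.1 and 18.1 ± 10.2 CPM. FKBP5 stood at 42.5 ± 10.8, 729 ± 609, 139 ± 59.7 and 131 ± 121 CPM, again with the highest mean at D1.

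Other genes kept the level reached at D1. SLC25A4 stood at 95.2 ± 22.6, 3264 ± 954, 3564 ± 936 and 3298 ± 641 CPM. CASQ1 stood at 14.0 ± 2.97, 109 ± 32.0, 115 ± 46.5 and 112 ± 46.2 CPM. TNNT2, low since D1, stood at 477 ± 58.1, 13.7 ± 8.41, 21.1 ± 10.3 and 18.6 ± 5.33 CPM. Some genes of glycolysis and glycogen rose further past D1, and others did not. LDHA stood at 114 ± 36.9, 1647 ± 1311, 24289 ± 5060 and 20057 ± 4426 CPM. GAPDH stood at 3821 ± 504, 10934 ± 3341, 78756 ± 13609 and 83027 ± 21928 CPM. For PHKG1 the levels were 68.3 ± 7.03, 335 ± 29.99, 1791 ± 271 and 1557 ± 175 CPM, and in all 3 genes the D21 and D42 means lay above D1. By contrast, ENO1 stood at 1931 ± 231, 793 ± 101, 976 ± 59.0 and 817 ± 121 CPM. ALDOC stood at 332 ± 46.5, 68.0 ± 17.4, 56.4 ± 18.3 and 56.7 ± 28.0 CPM, and both stayed below their E17 means. MSTN was lowest at D1, with 155 ± 67.8, 7.09 ± 2.95, 68.5 ± 24.2 and 89.9 ± 34.6 CPM. TNNC1 was lowest at D1 too, with 2124.5 ± 797, 163 ± 149, 2941 ± 555 and 3575 ± 810 CPM. Its D21 and D42 means lay above that of E17, unlike those of TNNT2. WFIKKN1 went on down, with 97.7 ± 27.4, 7.04 ± 3.40, 0.188 ± 0.105 and 0.106 ± 0.117 CPM. MYH1B peaked later and with wide spread, at 5130 ± 1527, 16507 ± 11154, 23385 ± 8371 and 5483 ± 3688 CPM. MYH1C declined, at 18196 ± 4145, 7059 ± 2895, 2440 ± 479 and 2623 ± 868 CPM, subject to the division of reads named above.

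**Figure D5:**
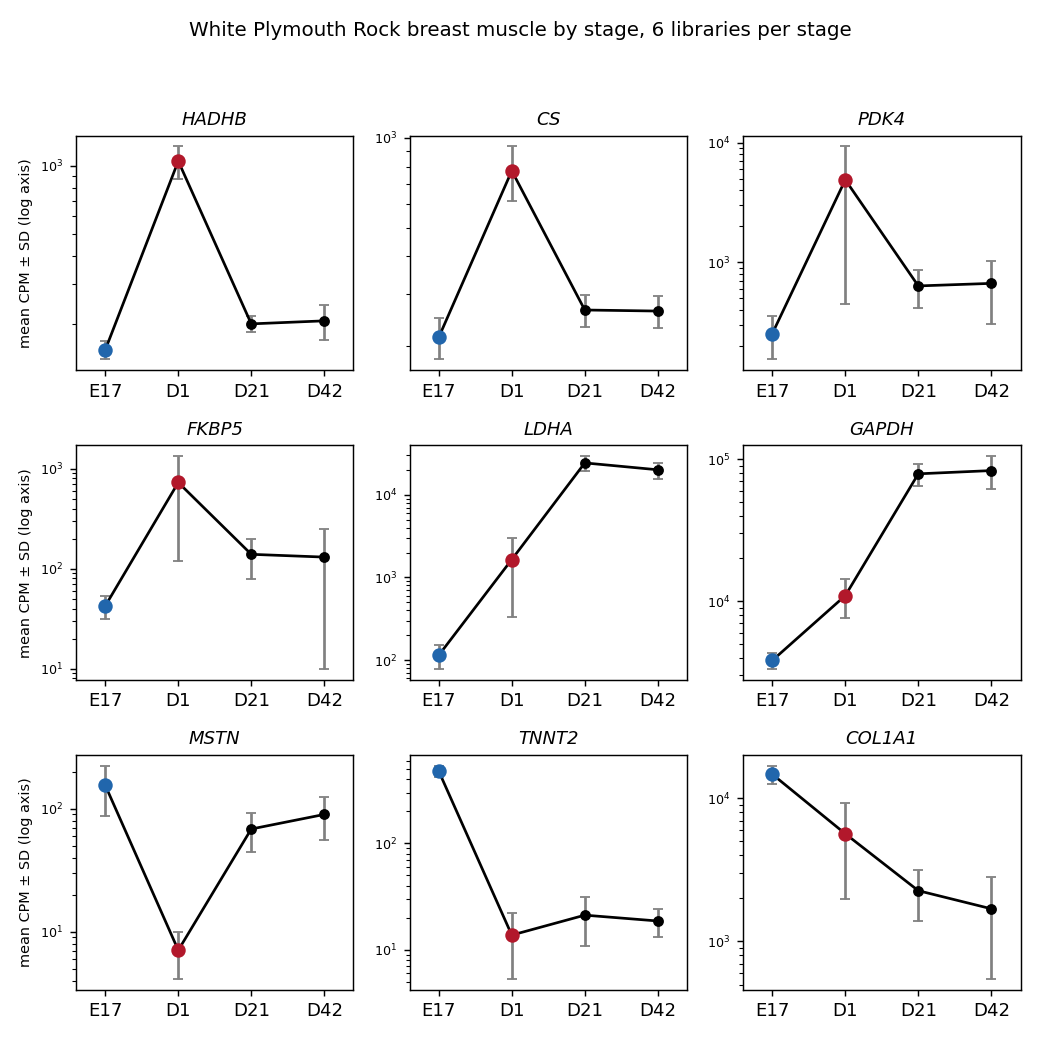
Mean level (CPM, log axis; error bars SD over 6 libraries) of 9 genes at E17, D1, D21 and D42 in White Plymouth Rock breast muscle, scaled over 24 libraries. HADHB, CS, PDK4 and FKBP5 peak at D1, LDHA and GAPDH climb past it, MSTN is lowest at D1, and TNNT2 and COL1A1 stay low after it.

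The same step was fitted in the other breeds to see where White Plymouth Rock differed. The breeds share no library. Of the 940 genes that rose by at least 2-fold in White Plymouth Rock, 770 also did in Cornish (81.9% of the White Plymouth Rock list and 72.0% of the Cornish one). The Cornish list held 9.27% of Cornish genes tested. In the crossbred 728 also rose (77.4% and 78.5%), where the list held 8.02% of genes tested. Of the 1323 that fell, 1112 also fell in Cornish (84.1% and 67.2%, with a background of 14.3%) and 1047 in the crossbred (79.1% and 74.8%, with a background of 12.1%). Across 11833 genes, which are not independent, the fold changes of White Plymouth Rock correlated with those of Cornish at r = 0.879 and with those of the crossbred at r = 0.867.

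The difference between breeds in the change across hatch was tested as an interaction in 36 libraries. Against Cornish 4 of 11833 genes passed (0.0338%), with 1029 at an unadjusted p under 0.05, where 592 would be expected if no gene differed. LRCH2, a leucine-rich repeat protein, fell in White Plymouth Rock, to 36.6 ± 5.99 CPM at D1, against 149 ± 22.5 CPM at E17 (SD, n = 6 each). Cornish muscle had 26.9 ± 3.89 CPM at D1, against 28.6 ± 2.66 CPM at E17 (difference in log2 fold change -1.94 ± 0.31, adjusted p = 0.00395). White Plymouth Rock E17 was the group that stood apart, with a range of 119 to 182 CPM. The crossbred had 40.2 ± 16.9 CPM at D1, against 81.8 ± 28.2 CPM at E17. Its mean lay between those of the purebreds at E17 but above both at D1. SLC37A4, the glucose-6-phosphate transporter, was at 561 ± 22.6 CPM at D1, against 514 ± 54.3 CPM at E17 in White Plymouth Rock. Cornish had 628 ± 38.2 CPM at D1, against 372 ± 26.6 CPM at E17 (difference -0.63 ± 0.11, adjusted p = 0.00811). In Cornish its mean was higher at D1, while in White Plymouth Rock SLC37A4 was not called across hatch. The White Plymouth Rock log2 fold change was 0.0855 to 0.16 with 1 library left out and -0.0086 with library totals.

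NIM1K, a kinase of the AMPK-related family with few counts, was at 3.02 ± 0.724 CPM at D1, against 1.10 ± 0.340 CPM at E17 in White Plymouth Rock. In Cornish it was at 2.12 ± 0.474 CPM at D1, against 2.67 ± 0.4002 CPM at E17 (difference 1.79 ± 0.34, adjusted p = 0.0303; not called when any 1 of 10 of the 24 libraries was left out, adjusted p up to 0.0837). It lies outside the naming rule and was picked with its values known. TMEM131, a transmembrane protein known from nematodes and human cells to aid collagen secretion, was at 217 ± 20.4 CPM at D1, against 211 ± 14.3 CPM at E17 in White Plymouth Rock. Its Cornish level was 174 ± 21.2 CPM at D1, against 246 ± 21.2 CPM at E17 (difference 0.54 ± 0.11, adjusted p = 0.0440; not called when any 1 of 16 of the 24 libraries was left out, adjusted p up to 0.133). TMEM131 also lost its call in a fit of only the 24 libraries of White Plymouth Rock and Cornish (adjusted p = 0.133). With the replicate number as a block, TMEM131 and NIM1K both lost their calls (adjusted p = 0.136 and 0.0692). With 1 library left out at a time 2 to 6 genes passed, and LRCH2 and SLC37A4 passed every time. Against the crossbred 0 genes passed in edgeR (0%), 715 were at an unadjusted p under 0.05 (592 expected if no gene differed), and DESeq2 called 5. No member of the 40 gene lists passed either interaction test. MSTN was among them (difference from Cornish -0.60 ± 0.49, adjusted p = 0.771; from the crossbred -0.27 ± 0.49, adjusted p = 0.968).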

How the data were processed

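RNA-seq of breast muscle was taken from 72 libraries, of which 12 form the comparison of D1 with E17 in White Plymouth Rock. The authors deposited estimated counts per gene as whole numbers in 1 table of 12046 genes, each with a count above 0 in at least 36 of the 72 libraries, so genes restricted to a few libraries are absent. Per the submitters' processing notes, reads were trimmed with cutadapt 4.4, aligned with HISAT2 2.2.1 to GRCg7b and assembled with StringTie; per the labels' protocols, about 20 mg of frozen tissue was homogenised and TruSeq libraries were made. The step that gave counts, and whether strand was used, is not given in the sources used here, so antisense and overlapping genes cannot be told apart. The authors' deposited tables of breed comparisons at single stages were not used.

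Counts were scaled by TMM and filtered by filterByExpr, leaving 11599 genes, and D1 was tested against E17 with edgeR 4.0.16 (glmQLFit and glmQLFTest, R 4.3.3) on the 12 libraries, with Benjamini-Hochberg adjustment and a threshold of 0.05. Standard errors are the fold change over the square root of the F statistic. The breed difference was an interaction in 36 libraries, adjusted over 11833 genes. Alternatives were DESeq2 1.42.0, other scalings and filters, fits on 24 or 72 libraries, a replicate block and leaving out each library; leaving out 3 libraries together, and leaving out libraries of the breed fit, were chosen after seeing the data. Depth of at least 52506427 counts per library leaves counting error small beside the spread between libraries, except for genes near 1 CPM.

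Members and gene lists were chosen with earlier results of these data known. Named genes are the 12 rises and 12 falls with the largest fold change among called genes without overlap and a mean of at least 5 CPM, up to 5 called members of each list at a mean of at least 1 CPM, the 8 genes of highest CPM, every fast and slow contractile gene, a fixed set of regulators and cell markers, and up to 5 interaction genes per direction; other genes named for their role were chosen after their values were seen. Not all genes that the rule takes are reported here. Coordinates are those of RefSeq on GRCg7b, in which 11541 of 12046 symbols were matched. Promoter motifs were planned, but no sequences were used here.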

Additional observations from a re-analysis of the deposited data

Results flagged for a closer look

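A single library lay apart from the other 5 of its group in 61 of 446 gene and group combinations (13.7%), of which 39 were at D1 and 22 at E17. The gap to the nearest library exceeded 0.625 of the group's range, the limit of Dixon's test for 6 values. That limit flags about 1 in 20 groups of normally distributed values. Here it was applied to CPM without a log, and the genes are not independent. The 13.7% can therefore not be read as an excess over chance.

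D1 library 6 held the highest level, apart from the rest, of CD36 (580.3 CPM, the next 318), COX7A2 (13.5 CPM, the next 9.79), FAM81A (1.85 CPM, the next 0.590), FBXO32 (1660 CPM, the next 627), FOS (445 CPM, the next 144), HBA1 (327 CPM, the next 138), HSPB7 (479.8 CPM, the next 146), IRS2 (529.6 CPM, the next 81.8), KLF15 (709 CPM, the next 322), KLHL38 (444 CPM, the next 74.6), LPIN1 (167 CPM, the next 62.9), PHKA2 (28.5 CPM, the next 8.85), PPARGC1A (131 CPM, the next 66.6), SESN1 (4802 CPM, the next 1619), THBS1 (472 CPM, the next 79.3), THRB (1.48 CPM, the next 0.748), TRIM63 (1782 CPM, the next 467) and TULP1 (55.3 CPM, the next 9.24). D1 library 1 was high for CHRNG (79.5 CPM, the next 41.7), CIDEA (57.6 CPM, the next 15.9), NXNL1 (74.7 CPM, the next 28.9), PECAM1 (570.1 CPM, the next 396), PFKM (7433 CPM, the next 3250), PTPRC (17.05 CPM, the next 7.06) and TCAP (543 CPM, the next 186). The same library was low for ACVR2B (5.72 CPM, the next 12.1), LAMA4 (108 CPM, the next 297), MYOM2 (1593 CPM, the next 3179) and RYR3 (264 CPM, the next 452). D1 library 2 was high for EGLN3 (27.1 CPM, the next 17.01), MB (47.9 CPM, the next 10.95), MYL10 (103 CPM, the next 37.1), MYL3 (338 CPM, the next 118), RGS5 (281 CPM, the next 185) and TPM3 (409.8 CPM, the next 203). D1 library 3 was high for MYOG (31.7 CPM, the next 10.9) and SDR42E2 (4.65 CPM, the next 1.03). D1 library 4 was high for KCNIP1 (4.404 CPM, the next 0.943) and MYOZ1 (952 CPM, the next 648).

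E17 library 1 was high for MYH7 (33.4 CPM, the next 13.9), MYH7B (205 CPM, the next 80.6), MYL10 (99.7 CPM, the next 36.4), MYL3 (180.0 CPM, the next 47.9) and TPM3 (326 CPM, the next 252). E17 library 2 was high for OGDH (247 CPM, the next 195), SOD2 (71.99 CPM, the next 58.5) and UQCR11 (47.8 CPM, the next 33.0). E17 library 3 was high for HSD11B2 (1.06 CPM, the next 0.543) and NES (2518 CPM, the next 1804). It was low for DIO2 (0.663 CPM, the next 1.51). E17 library 4 was high for LAMA4 (1057 CPM, the next 901). E17 library 4 was low for CRABP2 (10.5 CPM, the next 11.8) and FABP3 (132 CPM, the next 177). E17 library 5, which carried skin keratins, was high for ACACB (48.2 CPM, the next 32.8), CIDEA (8.41 CPM, the next 3.36), DGAT2 (10.4 CPM, the next 4.57), KRT24 (89.2 CPM, the next 24.4), MDK (44.4 CPM, the next 32.3) and MYL4 (23.8 CPM, the next 9.49). E17 library 6 was high for MAP1LC3A (87.1 CPM, the next 64.1). E17 library 6 was low for PPARA (6.73 CPM, the next 9.63).

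The log2 fold change across hatch of White Plymouth Rock minus that of Cornish differed by the interaction test for LRCH2 (-1.94), SLC37A4 (-0.63), TMEM131 (0.54) and NIM1K (1.79). Causes of these patterns were not tested.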

How the results depend on the processing

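The counts of genes that rose (3080) and fell (2983) stayed within 1.5 times under each alternative run: 2830 to 3127 and 2720 to 3097 with 1 library left out, 2203 and 3751 with library totals, 3292 and 3171 with DESeq2, 2699 and 2818 with the replicate number as a block. Replicate numbers showed little sign of pairing. Same-numbered D1 and E17 libraries had a mean correlation of deviations of 0.0108, and 0 of 6 pairs exceeded 0.1. Of 6 D1 libraries, 1 correlated best with its own number. These values cannot show whether same-numbered libraries shared a batch. Of 187 called genes named in the text, 173 stayed called in each alternative, and 0 of them changed sign. Of 80 list counts, 30 moved by over 1.5 times in some alternative; apart from the falls in cell division and cytosolic ribosome, the largest such move was 5 genes. Genes whose change across hatch differed from Cornish numbered 15 with DESeq2, 7 with 24 libraries, 2 with the replicate block and 2 to 6 with 1 library left out, against 4; from the crossbred, 5 with DESeq2, against 0. SLC37A4 and NIM1K lost the call with 72 libraries (adjusted p = 0.379 for both). Genes that changed sign were not called: CASQ2 (-0.0446 with library totals, -0.00520 to 0.23 with 1 library left out), COX7A2 (-0.11 with library totals, -0.15 with the 3 libraries out, -0.0816 to 0.10 with 1 library left out), MYL1 (-0.0366 with library totals, -0.0117 to 0.22 with 1 library left out), MYL10 (0.00150 with DESeq2, 0.00100 with median-of-ratios factors, 0.0104 with 24 libraries, 0.00970 with 72 libraries, 0.29 with the 3 libraries out, -1.06 to 0.98 with 1 library left out), MYL2 (-0.10 to 1.29 with 1 library left out), PTPRC (-0.11 with library totals, -0.14 with the block, -0.44 with the 3 libraries out, -0.39 to 0.14 with 1 library left out), SLC37A4 (-0.00860 with library totals), SUCLG2 (0.0203 with the 3 libraries out, -0.21 to 0.0486 with 1 library left out), TMEM131 (-0.0935 with library totals, -0.0238 with the 3 libraries out), TNNC2 (-0.10 to 0.0223 with 1 library left out), TPM3 (0.00130 with the 3 libraries out). The cause was not tested. Low counts limit DIO2, THRB, NIM1K and other genes near 1 CPM.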

Other observations

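Further gene groups are set against the shares over all genes, 26.6% higher and 25.7% lower. MB, myoglobin, the oxygen store of muscle, had 0.632 to 47.9 CPM (median 6.35) at D1, against 0.331 to 1.01 CPM (median 0.604) at E17 (log2 fold change 4.24 ± 0.90, adjusted p = 0.00157), with overlap between the groups (3.01 without D1 library 2, at 47.9 CPM). In the hypoxia list 10 of 21 genes rose and 4 fell (median 0.47). EGLN3, an oxygen-sensing hydroxylase, had 11.9 to 27.1 CPM (median 15.8) at D1, against 88.8 to 139 CPM (median 113) at E17 (-2.76 ± 0.19, adjusted p = 3.40e-07).

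Of 30 antioxidant genes 9 rose and 5 fell (30% and 16.7%, median 0.26), a share of rises near that of all genes. SOD2, the mitochondrial superoxide dismutase, had 78.6 to 149 CPM (median 123) at D1, against 51.4 to 71.99 CPM (median 56.3) at E17 (1.00 ± 0.16, adjusted p = 0.000234), while GPX7 (-1.67 ± 0.26, adjusted p = 0.000174) and GPX8 (-0.88 ± 0.25, adjusted p = 0.0105), glutathione peroxidase relatives of the endoplasmic reticulum, fell. Among 39 chaperones 12 rose and 3 fell (30.8% and 7.69%, median 0.17), again with rises near that share. CRYAB, the small heat shock protein alpha B crystallin, had 78.7 to 268 CPM (median 119.9) at D1, against 33.7 to 59.3 CPM (median 40.0) at E17 (1.75 ± 0.30, adjusted p = 0.000323).

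Of 21 sterol synthesis genes 12 rose and 1 fell (median 0.34). With library totals in place of TMM 7 of them rose (median 0.19). HMGCS1, an early enzyme of the pathway, had 68.0 to 121 CPM (median 80.6) at D1, against 27.3 to 42.4 CPM (median 31.1) at E17 (1.40 ± 0.15, adjusted p = 1.07e-05). SREBF2, its transcription factor, rose by 1.17 ± 0.20 (adjusted p = 0.000332). Of 26 interferon-related genes 11 rose and 3 fell (median 0.51), with IRF9, part of the interferon response factor, at 4.72 to 18.5 CPM (median 14.3) at D1, against 1.80 to 3.88 CPM (median 2.56) at E17 (2.28 ± 0.35, adjusted p = 0.000138) and TAP2, a peptide transporter of antigen presentation, at 1.83 ± 0.29 (adjusted p = 0.000203).

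Some developmental growth genes fell: of 25 genes 10 fell and 1 rose (median -0.33). MDK, the growth factor midkine, had 1.16 to 6.01 CPM (median 2.54) at D1, against 26.0 to 44.4 CPM (median 26.6) at E17 (-3.35 ± 0.37, adjusted p = 1.12e-05), and CRABP2, a retinoic acid carrier, had 1.09 to 2.25 CPM (median 1.90) at D1, against 10.5 to 12.4 CPM (median 12.1) at E17 (-2.73 ± 0.19, adjusted p = 3.91e-07), with every D1 library below every E17 library in both. In the creatine and purine list 5 of 11 rose and 1 fell. SLC6A8, the creatine transporter, had 55.1 to 194 CPM (median 92.3) at D1, against 1.09 to 36.7 CPM (median 25.1) at E17 (2.34 ± 0.58, adjusted p = 0.00430), and AK1, muscle adenylate kinase, rose by 1.38 ± 0.17 (adjusted p = 2.56e-05). Smooth muscle and pericyte markers summed to 3541 to 8708 CPM at D1, against 3852 to 5762 CPM at E17, with 3 of 13 higher and 4 lower (23.1% and 30.8%), both near the shares over all genes. RGS5, a pericyte marker, rose by 1.38 ± 0.18 (adjusted p = 3.65e-05), whereas MCAM, a mural and endothelial cell adhesion molecule, fell by 1.01 ± 0.15 (adjusted p = 0.000121). Of 20 genes of fat synthesis and storage 9 rose and 5 fell (median 0.28).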
